A study of Mus musculus with 2 samples.

Results

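The genes described here are the voltage-gated and potassium channel genes of the mouse, taken by symbol: those that begin with Kcn (potassium channel subunits, with 1 symbol left out by the rule), those that read Scn, a number and a or b (sodium channel subunits), and those that begin with Cacna, Cacnb or Cacng (calcium channel subunits). The rule found 138 of the 32534 features, and no measured value entered it. It also took in 6 features that are not channel subunits: the noncoding RNAs Kcnq1ot1, Kcnd3os, Kcnmb4os1, Kcnmb4os2 and Kcnab3os, and Kcnrg. Of the 138 members, 9 had no unique molecular identifier (UMI, 1 captured transcript) in any cell and 30 had fewer than 10.

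Levels came from 3′ single-cell RNA-seq of dissociated olfactory epithelium, with 1 library from a female of 9 weeks hemizygous for Tg(Or8a1-OR1A1,-MAPT/mCherry)D736Feins, a transgene of the human odorant receptor OR1A1, and 1 from a wild-type female of 8 weeks. The transgenic strain is labelled Tg(Or8a1-OR1A1,-MAPT/mCherry)D736Feins/J and the wild-type animal's as a cross of 10G4-V2.2-#7/Jax with Bl6/129SF1/J, so genotype, strain and age cannot be told apart between the libraries. The construct's name cites the mouse receptor gene Or8a1, and the sources used here do not say more of its promoter. With 1 library per genotype no test was possible, and cells were not treated as replicates: cell classes are compared within a library, and values are given for both in the order transgenic, wild type unless stated.

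Voltage-gated channels open and close with the membrane potential: sodium channels drive the upstroke of the action potential, potassium channels end it and set the resting potential, and calcium channels couple depolarization to calcium entry. An olfactory sensory neuron (OSN) turns odorant binding into a receptor current through cyclic nucleotide-gated and calcium-activated chloride channels, and its voltage-gated channels turn that current into spikes in the axon. Neurons are renewed through life, from horizontal and globose basal cells (HBC and GBC) through immediate neuronal precursors (INP) and immature neurons to mature OSNs, so all stages occur in 1 tissue.

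The transgenic library held 70572741 UMIs and the wild-type library 55701219, and 1745 and 1117 cells with medians of 14440 and 12983 UMIs were kept. Classes were named from markers, and each class name stands for cells like that type. The members themselves were left out of the clustering, so their levels did not define the classes. The neuronal lineage held, in transgenic and wild type, 53 and 7 GBC, 70 and 16 INP (marker Neurod1), 67 and 10 early immature (Tex15), 114 and 34 Gap43-high immature, 163 and 38 late immature and 637 and 439 mature cells. All 10 mature OSN markers stood at least 2-fold over the other cells in both libraries, against 3 of 6 for the early immature class. The wild-type GBC and early immature classes are small, and their values carry wide intervals. Levels are UMIs summed over a class and scaled to the class's total (CPM), with exact Poisson 95% intervals, and log2 ratios carry conditional binomial 95% intervals. Intervals cover counting error only, not differences between animals.

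The summed level of the members was higher at each later stage of the lineage in both libraries. It was 1018 CPM in GBC, 1542 in INP, 1829 in early immature, 3195 in Gap43-high, 4425 in late immature and 5244 in mature cells of the transgenic library. In wild type the same sums were 1123, 1344, 1991, 3389, 4814 and 5367 CPM. All 5 steps thus went up in each library, also without the noncoding RNA Kcnq1ot1, which held 507 and 499 CPM in GBC. Without it the sums were 510 and 624 CPM in GBC and 5071 and 5178 CPM in mature cells. Sodium channel alpha subunits had much of their gain early, from 134 and 77.4 CPM in INP to 982 and 972 CPM in Gap43-high cells. Sodium channel beta subunits gained later, from 67.9 and 83.4 CPM in Gap43-high to 433 and 333 CPM in mature cells. Pore-forming subunits of voltage-gated potassium channels went from 380 and 393 CPM in INP to 1331 and 1448 CPM in mature cells. The calcium channel gamma subunits went the other way, with 145 and 129 CPM in early immature and 26.2 and 23.2 CPM in mature cells.

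A level of 10 CPM in both libraries was taken as onset. By that measure 15 members were first present in GBC, 11 in INP, 12 in early immature, 3 in Gap43-high and 7 in late immature cells, and 90 never reached it at any stage. Of the 48 that did, 22 were highest in mature cells, 7 in late immature, 5 in Gap43-high, 6 in early immature, 5 in INP and 3 in GBC. Over all features that reached 10 CPM at a stage, 72.6% were first present in GBC and 17.7% were highest in mature cells, against 31.25% and 45.8% of these members. The highest stage was the same in both libraries for 39 of the 48 and at most 1 stage apart for 45. In the small classes onset can rest on few UMIs: Kcnc4 and Scn4b passed it in early immature cells with 11 and 2 UMIs and with 13 and 2 UMIs in transgenic and wild type.

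**Figure D1:**
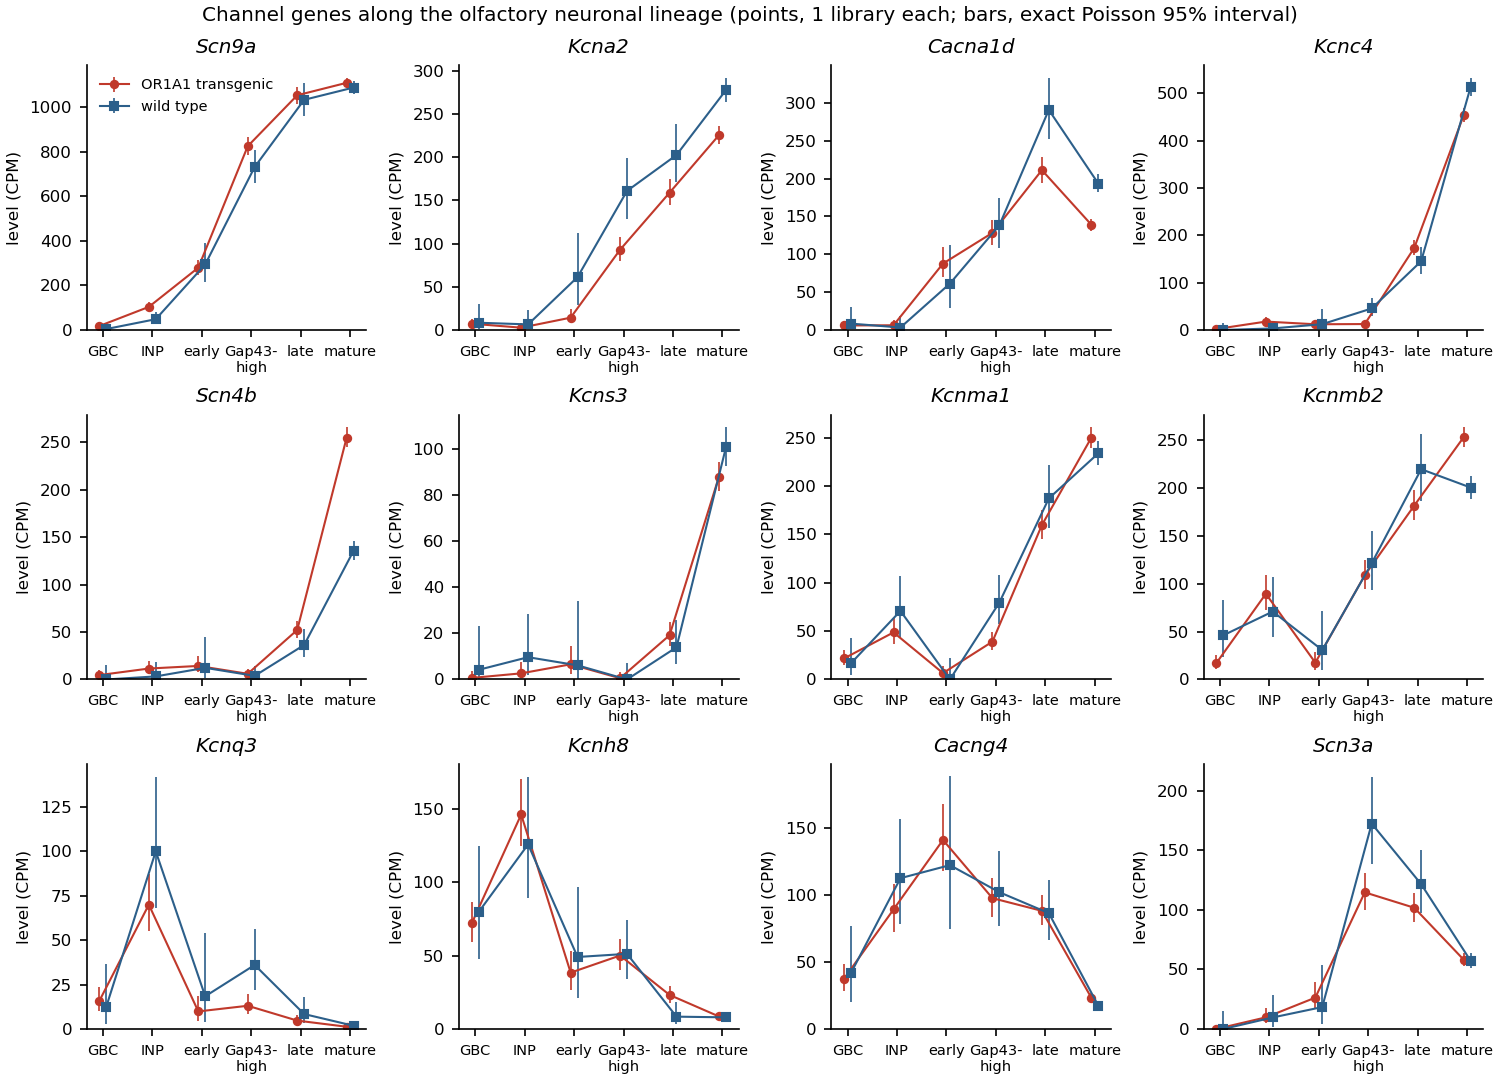
Level of 12 members (y axes, CPM, each from 0) at 6 stages of the neuronal lineage (x axes, from GBC to mature) in the transgenic (red circles) and wild-type (blue squares) library, with exact Poisson 95% intervals as bars. Scn9a climbs from INP on to 1109 and 1088 CPM, Kcnc4, Scn4b and Kcns3 are highest at the last stages, Kcnma1 and Kcnmb2 dip at the early immature stage, and Kcnq3 and Kcnh8 are highest in INP.

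From INP to early immature cells, members of the sodium, calcium and potassium channel groups were higher. The lower ones were potassium channel genes, as are most of the 138 members. A member was called at a step when it differed at least 2-fold the same way in both libraries, with at least 10 UMIs over the 2 classes in each. It could thus enter through the class where it was high. Of 22 members with enough UMIs, 7 were higher in early immature cells, against 6.13% of all features tested. The 7 were Scn9a, Scn3b, Cacna1b, Cacna1d, Cacna1e, Kcna2 and Kcnk10. The median log2 ratio was 0.82 over the 22 members and 0.02 over all features. Scn9a encodes the sodium channel alpha subunit Nav1.7, known from nociceptors and required for olfaction. It stood at 104 CPM in transgenic and 48.3 in wild-type INP and at 279 and 294 CPM in early immature cells. Its log2 ratio was 1.43 (1.11 to 1.76) in transgenic and 2.54 (1.74 to 3.55) in wild type. Cacna1d, the pore of the L-type calcium channel Cav1.3, had 6.20 and 3.22 CPM in INP and 87.7 and 61.3 CPM in early immature cells. Cacna1b, the pore of the N-type channel Cav2.2 of presynaptic terminals, had 33.6 and 32.2 CPM in INP and 75.6 and 104 CPM in early immature cells. Both calcium channel genes were thus higher in the Tex15 class of each library, though the wild-type class held 10 cells. The stages were also set by marker gates on UMIs of Neurod1, Tex15, Gap43 and Omp in all cells, those outside the lineage included. The gates took 165 and 56 cells as early immature, against 67 and 10 by clusters. Sustentacular cells carried 286 and 437 CPM of Tex15, and the part of cells outside the lineage in the gated result was not tested. With marker gates in place of clusters 1 of the 7, Kcna2, was still called. Scn9a then fell just short, at log2 ratios of 0.97 and 0.86, and Cacna1b (0.68 and -0.85), Cacna1e (1.39 and -0.31) and Kcnk10 (0.40 and -1.06) differed in sign between the libraries. With cells thinned to 7000 UMIs 3 of the 7 were called, and the other 4 had too few UMIs.

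Another 5 of the 22 members were lower in early immature cells than in INP, against 5.83% of all features. These were Kcns2, Kcnq3, Kcnh8, Kcnma1 and Kcnmb2. Kcns2, a silent subunit that modifies Kv2 channels, was the most stage-limited of the 5: it had 34.5 and 38.7 CPM in INP (39 and 12 UMIs) and 0 UMIs in early immature cells of both libraries. Kcnq3, a subunit of the M-current channels that damp repetitive firing, stood at 69.9 and 99.9 CPM in INP and at 9.86 and 18.4 CPM in early immature cells. Kcnh8, of the ELK group of the ether-a-go-go family, had 146 and 126 CPM in INP and 38.4 and 49.0 CPM one stage on. With marker gates 4 of the 5 were still lower, without Kcnma1, and after thinning 1 of the 5 was called, as 3 had too few UMIs and Kcnh8 fell short in wild type. In mature cells Kcnq3 was at 1.25 and 1.80 CPM and Kcnh8 at 8.50 and 7.92 CPM.

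Kcnma1 and Kcnmb2 were low in the early immature cells between higher levels on either side. Kcnma1 encodes the pore of the large-conductance calcium-activated (BK) potassium channel and Kcnmb2 a beta subunit of it that inactivates the current. Kcnma1 stood at 48.7 and 70.9 CPM in INP, at 6.58 CPM in transgenic early immature cells with 0 UMIs in wild type, and at 39.1 and 79.6 CPM in Gap43-high cells. Kcnmb2 stood at 89.4 and 70.9, then 17.5 and 30.6, then 109 and 121 CPM at the same stages. Both genes were therefore lower in the Tex15 class than in the classes before and after it in both libraries, although the wild-type interval of the Kcnmb2 fall reached above 0 (log2 ratio -1.01, from -2.97 to 0.23).

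From early immature to Gap43-high cells 11 of 34 members were higher, against 8.16% of all features (6 of the 11 after thinning), and the median log2 ratio was 0.69 over the members and 0.14 over all features. Besides Kcnma1 and Kcnmb2 they included Scn9a, Scn3a, Kcna2, Kcnab2, Kcnmb4, Kcnn1, Cacnb2 and Kcnq1ot1. Scn9a reached 825 and 731 CPM. Scn3a, the sodium channel Nav1.3 known from embryonic neurons, went from 26.3 and 18.4 to 115 and 172 CPM, which was its highest stage. It stood at 58.2 and 57.2 CPM in mature cells. Kcna2, the pore of the axonal delayed rectifier Kv1.2, went from 14.2 and 61.3 to 92.9 and 161 CPM. Kcnab2, a cytoplasmic beta subunit of Kv1 channels, went from 4.38 CPM and 0 UMIs to 32.1 and 20.8 CPM. Of the 34 members 1 was lower, Cacna1e, the pore of the R-type calcium channel, against 3.36% of all features, with 17.5 and 61.3 CPM in early immature and 4.89 and 9.47 CPM in Gap43-high cells. With stages set by marker gates in place of clusters, the mean log2 ratio of Cacna1e at this step was 1.52. Its direction was thus not kept with the gates, which were open to cells of all classes.

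The members higher at the last step were mostly potassium channel subunits, as are most of the 138 members, and included Scn3b, Scn4b, Scn8a and Cacnb3. Between Gap43-high and mature cells 18 of 53 members were higher, against 7.78% of all features, and the median log2 ratio was 0.53 over the members and -0.24 over all features. Mature cells held 8820457 and 5558068 UMIs, against 1839716 and 527867 in Gap43-high cells. Some members, Kcna1 and Kcnq1 among them, thus entered through mature cells alone, and the counts are a description. Kcnc4, the pore of the fast A-type channel Kv3.4, stood at 12.5 and 45.5 CPM in Gap43-high, 173 and 145 in late immature and 454 and 514 CPM in mature cells. Its log2 ratio from Gap43-high to mature was 5.12 in transgenic and 3.44 in wild type. The Gap43-high classes of the libraries differed in stage markers, with Tex15 at 29.4 and 309 CPM and Omp at 257 and 483 CPM. The part of this difference in the levels and ratios was not tested. Scn4b, a sodium channel beta subunit linked to resurgent current, went from 5.98 and 3.79 CPM through 52.1 and 36.3 to 255 and 136 CPM. Kcns3, a silent Kv2-modifying subunit, had 0.54 CPM in transgenic and 0 UMIs in wild-type Gap43-high cells and stood at 88.1 and 101 CPM in mature cells. Kcng1, another silent subunit, went from 1.09 and 1.89 to 68.7 and 38.5 CPM. Kcnj2, the inward rectifier Kir2.1 that holds the resting potential, went from 4.35 and 9.47 to 60.2 and 69.6 CPM. Each of these was higher in mature cells of both libraries, and the late immature class lay between for Kcnc4, Scn4b and Kcns3.

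Of the other members of the 18, Kcna1 and Kcnq1 had 0 UMIs in Gap43-high cells of both libraries and about 10 CPM in mature cells (9.75 and 10.8 CPM, and 8.39 and 9.72 CPM). Kcnmb3, Cacnb3, Kcna5, Kcna6, Kcnip4, Kcnab2, Kcnma1, Scn3b and Scn8a were also among the 18, and Scn8a, the Nav1.6 channel of adult axons, went from 22.8 and 24.6 to 65.1 and 77.4 CPM. Reads of Kcnq1 and of Kcnq1ot1, which is antisense to it, could have been exchanged in counting, since the sources used here do not say whether counting used strand. Another 8 of the 53 were lower in mature cells, against 13.8% of all features: Kcnq3, Kcnb2, Kcnh7, Kcnh8, Cacng4, Kcnmb4, Kcnmb4os2 and Kcnq1ot1. Cacng4, which also acts as an AMPA receptor partner, went from 97.8 and 102 to 23.4 and 17.5 CPM. Kcnb2, the delayed rectifier Kv2.2, went from 38.0 and 43.6 to 5.22 and 4.14 CPM. Kcnmb4, the neuronal BK beta subunit, went from 79.9 and 77.7 to 28.8 and 20.7 CPM.

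The sequences before the annotated starts of 3 members are shown because these members carry the order described above: Scn9a, which was over 10 CPM from INP on and gained most before the mature stage, and Kcnc4 and Scn4b, whose gain came in late immature and mature cells. They are the 250 bases before the RefSeq start on GRCm38.p6, which is an earlier build than the one of the counts, read 5′ to 3′ on the gene's strand, with every CG pair in capitals.
Scn9a, chr2:66634963-66635212, minus strand: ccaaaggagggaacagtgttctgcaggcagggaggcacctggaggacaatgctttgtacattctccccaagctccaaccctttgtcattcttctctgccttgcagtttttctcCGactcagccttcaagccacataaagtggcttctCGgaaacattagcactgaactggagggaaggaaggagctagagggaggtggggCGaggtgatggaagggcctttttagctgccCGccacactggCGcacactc
Kcnc4, chr3:107458899-107459148, minus strand: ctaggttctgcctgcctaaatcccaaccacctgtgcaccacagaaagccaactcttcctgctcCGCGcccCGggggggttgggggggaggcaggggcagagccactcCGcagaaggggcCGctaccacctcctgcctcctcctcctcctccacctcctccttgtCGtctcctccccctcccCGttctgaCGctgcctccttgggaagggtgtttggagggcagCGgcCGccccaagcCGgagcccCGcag
Scn4b, chr9:45138374-45138623, plus strand: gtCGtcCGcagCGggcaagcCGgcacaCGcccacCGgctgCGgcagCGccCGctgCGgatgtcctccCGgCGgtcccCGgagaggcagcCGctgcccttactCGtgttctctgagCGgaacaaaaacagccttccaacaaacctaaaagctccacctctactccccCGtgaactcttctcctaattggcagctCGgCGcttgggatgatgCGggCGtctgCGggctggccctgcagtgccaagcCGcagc
The Scn9a stretch held 5 CG pairs, that of Kcnc4 12 and that of Scn4b 23, and their GC contents were 54.4%, 68.0% and 66.0%. After starts on a chromosome left out of the search and incomplete windows were dropped, RefSeq gave 138 starts for 102 of the 138 members. In windows from 250 bases before to 50 after the start, the median GC content was 58.2% for the members and 52.7% over all 32851 starts kept. The palindrome of TCCC and GGGA with any 2 bases between, a form of the site of the Ebf factors, was in 0 of the 138 windows and in 0.904% of all. The palindrome TAATTA, a core bound by many homeodomain proteins, was in 0 of the 138 and in 5.29% of all. Both read the same on either strand and cannot overlap each other, and their absence says only that these letters are not in these windows.

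In mature OSNs 35 of the 138 members stood at 10 CPM or more in both libraries, as did 8123 of the 32534 features, and 38 members had 0 UMIs in both. The 12 highest members took 70.4% of the summed member level in transgenic and 69.3% in wild type. Since 3′ UMI counts are about 1 per captured transcript, levels are set between genes without division by length, though capture can differ between genes. Scn9a was the highest at 1109 CPM (1087 to 1131) and 1088 CPM (1061 to 1116). It took 21.1% and 20.3% of the member sum and 84.9% and 82.7% of all sodium channel alpha UMIs. A UMI of Scn9a was found in 100% of 637 and 100% of 439 mature cells. In fibroblasts, which should lack it, the share was 4.76% and 4.55%. Median depths were 13810 and 12387 UMIs in mature cells and 10916 and 10484 UMIs in fibroblasts. After thinning to 7000 UMIs a cell, the shares were 99.7% and 99.5% in mature cells and 2.53% and 2.63% in fibroblasts. Other alpha subunits above 10 CPM in both included Scn8a, Scn3a and Scn2a (18.6 and 17.1 CPM).

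**Figure D2:**
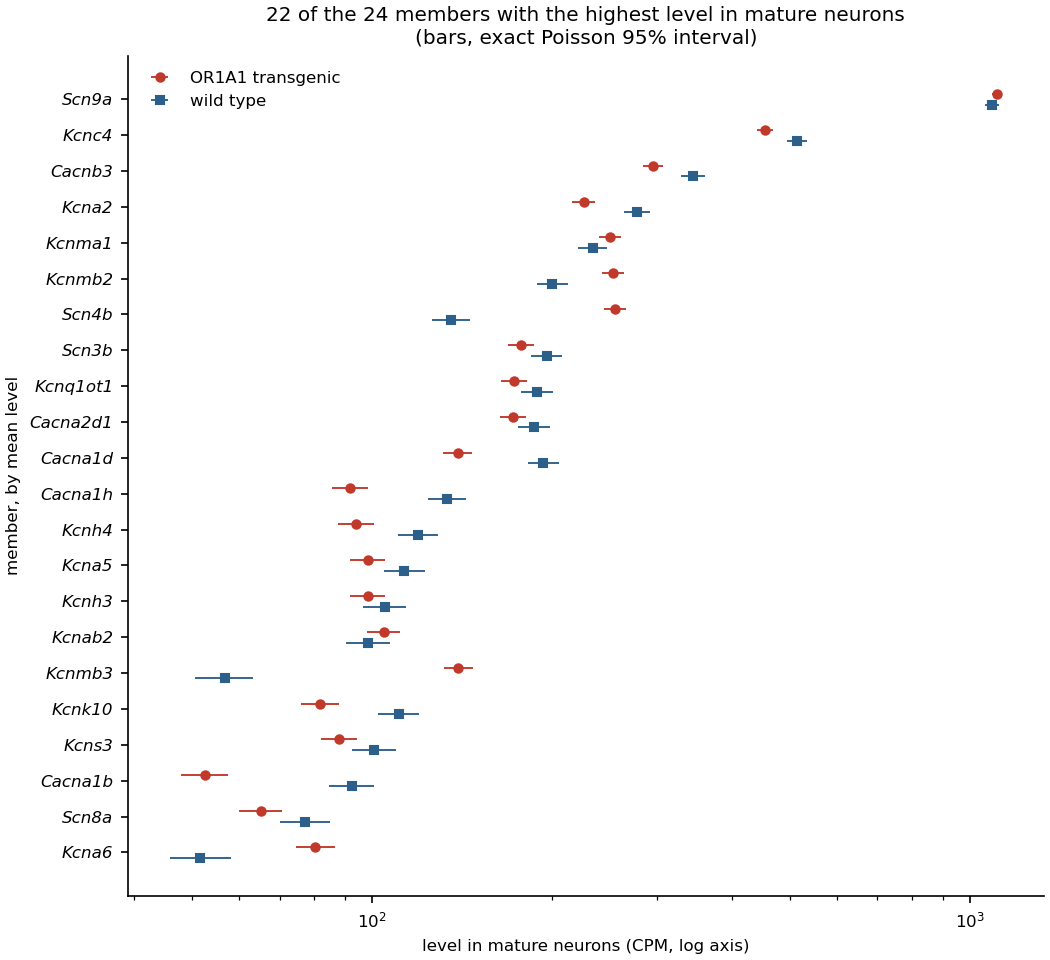
Level in mature neurons (x axis, CPM on a log axis) of 22 of the 24 members with the highest mean level (y axis), in the transgenic (red circles) and wild-type (blue squares) library, with exact Poisson 95% intervals as bars. Scn9a stands alone at 1109 and 1088 CPM, Kcnc4 follows at 454 and 514, and Scn4b and Kcnmb3 show the widest gaps between the libraries.

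Kcnc4 led the voltage-gated potassium pores with 34.1% and 35.5% of their UMIs, and 98.7% and 99.3% of mature cells had a UMI of it, against 2.38% and 6.82% of fibroblasts. Kcna2 followed at 226 and 278 CPM. Lower levels were those of Kcna5 (Kv1.5), at 98.3 and 113 CPM, and the ELK channels Kcnh3 and Kcnh4, at 98.4 and 105 CPM and at 94.0 and 119 CPM. The intervals of Kcna5, Kcnh3 and Kcnh4 overlapped one another in each library. Kcnma1 (250 and 234 CPM) and Kcnmb2 (253 and 200 CPM) were about equal to each other in the transgenic library. Of the 14 two-pore genes, whose channels leak potassium at rest, Kcnk10 (TREK-2) held 95% and 96.3% of the UMIs, and of the 15 inward rectifiers Kcnj2 held 91.1% and 93.3%.

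Among calcium channel genes the beta subunit Cacnb3 was highest, at 295 and 344 CPM. The alpha2delta subunit Cacna2d1, the binding protein of gabapentin, stood at 172 and 187 CPM and held 98.9% and 99.4% of alpha2delta UMIs. Of the pores, Cacna1d stood at 139 and 193 CPM, Cacna1h (the T-type channel Cav3.2) at 91.8 and 134 CPM, Cacna1b at 52.5 and 92.5 CPM and Cacna1a (the P/Q-type pore) at 12.6 and 28.1 CPM. Each of the 4 was lower in the transgenic library. The sodium channel beta subunits were led by Scn4b (255 and 136 CPM) and Scn3b (178 and 196 CPM).

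After thinning to 7000 UMIs a cell, which left out 22 and 20 shallower mature cells, 33 members had a mean of at least 0.1 UMI. Their median variance over mean was 1.19 and 1.18, where sampling alone gives about 1 and all features measured so had 1.06 and 1.06, and 2 of them had at least 1.5 in both libraries, against 3.76% of all features. They were Scn9a (1.62 and 1.52) and Kcnq1ot1 (2.34 and 2.47). Kcna2 stood at 1.73 in transgenic and 1.31 in wild type, and Kcnc4 at 1.42 and 1.43. Omp, which marks maturity, stood at 2.38 and 1.86. Of the 33 members, Scn9a also had the highest mean UMIs a cell in both libraries, followed by Kcnc4. The part of the mean level in these ratios and in their medians was not tested. The ratios therefore do not rank members by how much their levels differ between cells.

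S100a5 encodes a calcium-binding protein that is known to follow the activity of OSNs, and mature cells were divided into low, middle and high parts of equal size by its level within each library. Its level went from 4502 through 17582 to 43613 CPM in transgenic and from 341 through 5726 to 28294 CPM in wild type, while Omp stayed between 4877 and 5191 CPM in all 6 parts. A member was called at 1.5-fold the same way in both libraries. Of 49 members with enough UMIs, 4 were higher in the high part, against 2.27% of all features, and 5 were lower, against 2.94%.

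The 4 higher members were Kcnmb3, Kcng1, Scn4b and Kcna1. Kcnmb3, a BK beta subunit, stood at 87.7, 149 and 182 CPM from low to high in transgenic and at 8.96, 39.4 and 117 CPM in wild type. Its log2 ratio of high over low was 1.05 (0.83 to 1.27) and 3.62 (2.97 to 4.54). Kcng1 stood at 41.0, 79.9 and 85.1 CPM and at 5.60, 30.1 and 76.7 CPM, with log2 ratios of 1.05 and 3.65. Scn4b went from 197 through 263 to 304 CPM and from 56.6 through 137 to 207 CPM, with log2 ratios of 0.62 and 1.86. For these 3 the 3 parts were in the same order in both libraries, and the wild-type span was the wider one, as was its span of S100a5.

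The 5 lower members were Kcnk10, Cacna1b, Kcnip4, Kcnq1 and Cacng4. Kcnk10 stood at 116, 74.1 and 55.4 CPM from low to high in transgenic and at 163, 113 and 60.7 CPM in wild type, with log2 ratios of -1.07 (-1.35 to -0.80) and -1.42 (-1.75 to -1.11). Cacna1b stood at 72.4, 46.8 and 38.5 CPM and at 144, 77.6 and 59.2 CPM, with log2 ratios of -0.90 and -1.28. Kcnip4, a calcium-sensing partner of Kv4 channels, stood at 45.4, 42.0 and 20.3 CPM and at 40.9, 23.0 and 19.6 CPM. Scn9a did not reach 1.5-fold, but its levels were ordered in both libraries, at 1261, 1132 and 936 CPM and at 1297, 1105 and 879 CPM, with log2 ratios of -0.43 (-0.50 to -0.36) and -0.56 (-0.65 to -0.47).

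**Figure D3:**
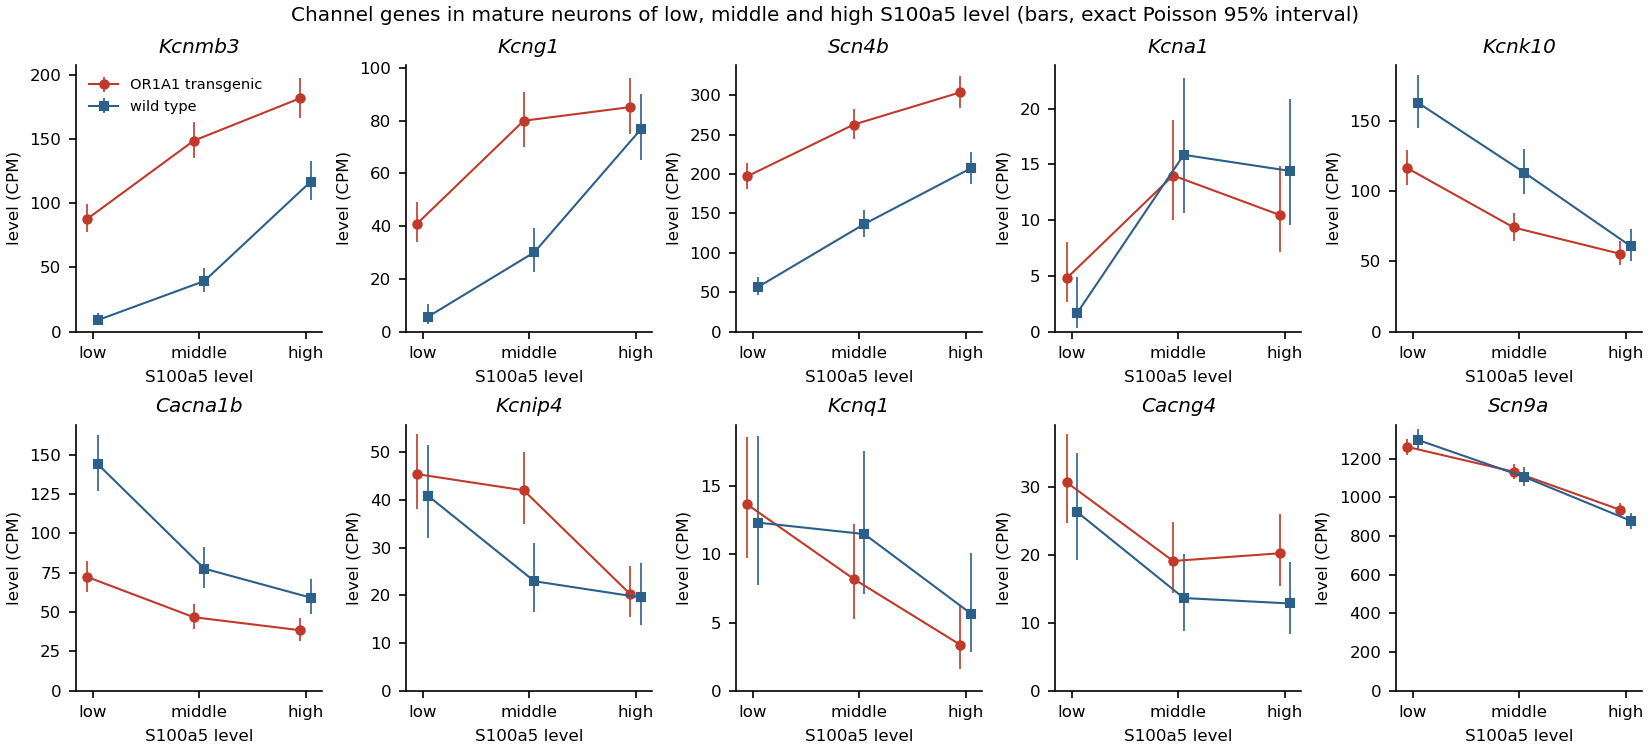
Level of 10 members (y axes, CPM, each from 0) in mature neurons of the low, middle and high S100a5 part (x axes) of the transgenic (red circles) and wild-type (blue squares) library, with exact Poisson 95% intervals as bars. Kcnmb3, Kcng1 and Scn4b climb with S100a5 and Kcnk10, Cacna1b and Scn9a descend in both libraries, while Kcna1 is lowest in the low part and not ordered between the other parts.

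Other genes moved with these parts. Calb2, which is high in late immature cells, went from 460 through 25.6 to 18.9 CPM in transgenic and from 1600 through 89.7 to 5.66 CPM in wild type, and Gap43 from 91.5 to 35.1 and from 43.7 to 13.9 CPM between the low and high part. Their part in the result was not tested. Nqo1, an enzyme of dorsal OSNs, also moved with it: S100a5 stood at 19124 and 9385 CPM in cells with at least 3 Nqo1 UMIs and at 23150 and 13164 CPM in cells with 0. In cells with no Nqo1 UMI alone, an alternative added after the data were seen, 3 of the 4 higher and 3 of the 5 lower members were still called. These were Kcnmb3 (log2 ratios 0.99 and 2.95), Kcng1 (1.00 and 2.90), Scn4b (0.66 and 1.31), Kcnk10 (-1.08 and -1.38), Cacna1b (-1.22 and -1.40) and Kcnq1 (-2.23 and -1.57). The wild-type ratios of Kcnmb3 and Kcng1 were smaller than over all mature cells. In the cells without Nqo1, Kcna1 (0.39 and 1.28), Kcnip4 (-0.85 and -0.44) and Cacng4 (-0.50 and -0.73) fell short of 1.5-fold in 1 library.

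By Nqo1 itself, 4 of 46 members were at least 1.5-fold higher in cells with 3 or more UMIs than in cells with 0 (172 and 405 cells in transgenic, 160 and 264 in wild type), against 1.74% of all features, and 4 were lower, against 4.1%. The higher ones were Kcnk10, Kcnip4, Kcnb2 and Cacna1c. Of these 4, Kcnk10 and Cacna1c fell short of 1.5-fold in 1 library at a minimum of 2000 UMIs or a mitochondrial maximum of 20%, and Kcnb2 and Cacna1c had too few UMIs after thinning. Kcnk10 stood at 111 and 160 CPM in Nqo1 cells and at 72.2 and 86.2 CPM in the others. The lower ones were Kcna1, Kcnh6, Cacna1a and Cacng4. Kcna1, the axonal channel Kv1.1, stood at 0.42 and 1.64 CPM in Nqo1 cells and at 13.6 and 15.2 CPM in the others. Kcnh6 stood at 4.57 and 4.92 CPM against 17.1 and 25.6 CPM, and Cacna1a at 5.41 and 13.1 against 15.1 and 35.5 CPM.

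Between the libraries, the share of members called in mature cells was near that over all features, and the counts are a description. Of 45 members with 50 UMIs, 1 was at least 2-fold higher in the transgenic library, against 2.95% of all features, and 1 was lower, against 4.02%. Kcnmb3 stood at 139 CPM in transgenic and 56.7 in wild type (log2 ratio 1.30, from 1.12 to 1.48), and Cacna1a at 12.6 and 28.1 CPM (-1.15, from -1.52 to -0.80). Scn4b (0.91), Kcng1 (0.83), Kcna6 (0.64), Kcnmb4 (0.47) and Cacng4 (0.41) were among those next to Kcnmb3, and Kcnn1 (-0.88), Cacna1b (-0.82), Kcnh6 (-0.58) and Cacna1h (-0.54) next to Cacna1a. S100a5 stood at 21978 and 11887 CPM in the mature cells of the 2 libraries. Of the 4 members that were higher with S100a5, Kcnmb3, Scn4b and Kcng1 were the higher ones in the transgenic library and Kcna1 was not (-0.15). Of the 5 that were lower with it, Kcnk10 (-0.44), Cacna1b and Kcnq1 (-0.22) were lower in the transgenic library and Kcnip4 (0.38) and Cacng4 were higher. Among mature cells with S100a5 between 5000 and 20000 CPM (233 and 136 cells, an alternative added after the data were seen), the log2 ratios were 0.91 (0.63 to 1.22) for Kcnmb3, 0.64 (0.45 to 0.85) for Scn4b and 0.28 (-0.06 to 0.65) for Kcng1, with S100a5 itself at 12713 and 10626 CPM. There 0 of 38 members were 2-fold higher, against 2.1% of all features, and 2, Cacna1a (-1.07) and Kcnh6 (-1.02), were lower, against 2.62%.

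Within the transgenic library, mature cells with at least 3 UMIs of the transgene (193 cells) were set beside those with 0 (326 cells). Of 42 members 1 was at least 2-fold higher, against 1.07% of all features, and 2 were lower, against 3.31%. Kcnip4 stood at 60.2 against 26.8 CPM (log2 ratio 1.16, from 0.82 to 1.52). Kcna1 stood at 3.13 against 12.3 CPM and Cacng4 at 14.1 against 29.2 CPM. This is 1 library, with no second animal. Kcnip4, Kcna1 and Cacng4 were also called the same way by Nqo1 in both libraries, wild type included. The part of Nqo1 in the difference between the transgene sets was not tested. After thinning neither lower call was made, since Kcna1 had too few UMIs and Cacng4 (-0.96) fell short, and at a minimum of 2000 UMIs 4 members were lower and Kcnip4 lay just under 2-fold (0.9985).

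Classes outside the neuronal lineage differed in the channel genes that stood out in them. Of 81 members with enough UMIs, 41 were at least 2-fold higher than in mature OSNs in at least 1 class, against 52.6% of all features. Of the 97 members with 20 UMIs or more, 48 (49.5%) were highest in the lineage, against 41.3% of all features, and 49 in another class. Sustentacular cells, the glia-like supporting cells (85 and 21 cells), had 10 of 60 members higher, against 20.4% of all features. They held Kcnk2 (the mechanosensitive leak channel TREK-1) at 225 and 265 CPM, Kcnk1 (TWIK-1) at 164 and 115 CPM and Kcnj5 (the G protein-gated channel GIRK4) at 138 and 134 CPM. All 3 were under 2 CPM in mature OSNs, and their levels in barcodes under 100 UMIs, which stand for free RNA, were 17.7 and 22.1, 37.8 and 18.2, and 6.53 and 7.37 CPM.

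Neuronal RNA was also counted in sustentacular cells. Omp stood there at 12.3% and 19.7% of its level in mature cells, and at those shares mature RNA would give 137 and 214 CPM of Scn9a, where 167 and 204 CPM were counted. Kcnc4 (74.6 and 108 CPM counted, 56.0 and 101 from Omp) and Scn4b (27.8 and 21.3, 31.4 and 26.7) were likewise near the Omp share. Kcna2 was not: 136 and 157 CPM were counted, where Omp gives 27.8 and 54.6 CPM.

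**Figure D4:**
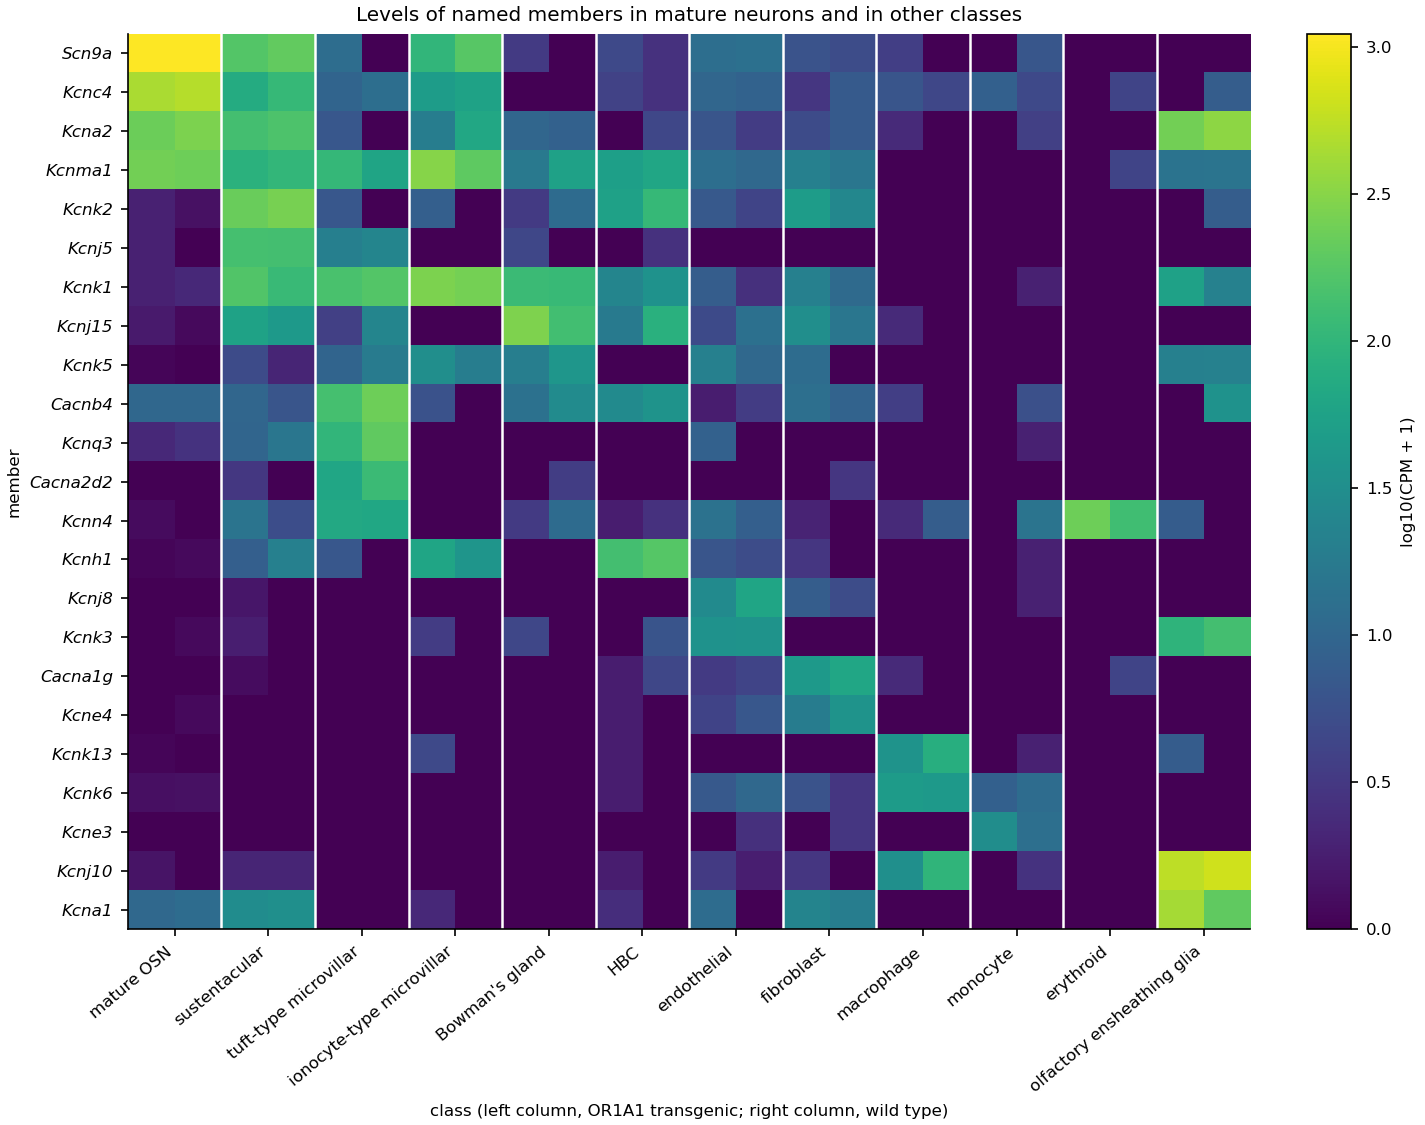
Level of 23 members (rows) in mature OSNs and 11 other classes (columns, transgenic left and wild type right of each pair), as the colour of log10(CPM + 1). Classes outside the lineage differ in the members that stand out, such as Kcnk2 and Kcnj5 in sustentacular cells, Cacnb4, Kcnq3 and Cacna2d2 in tuft-type cells and Kcnj10 in ensheathing glia. The transgenic erythroid column is 1 cell.

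Tuft-type cells, chemosensory cells that express Trpm5 (40 and 23 cells), had 11 of 57 members higher, against 20.4% of all features. They held Cacnb4 at 141 and 235 CPM, Kcnq3 at 98.7 and 200 CPM, Kcnk1 at 147 and 170 CPM, Cacna2d2 at 62.0 and 117 CPM and Kcnn4 at 67.7 and 64.6 CPM. The Kcnq3 level was thus above its level in INP, its highest stage of the lineage, in both libraries. Ionocyte-type cells, which express Cftr and Foxi1 (45 and 12 cells), had 11 of 63 members higher in the transgenic library, against 26% of all features. They held Kcnk1 at 280 and 258 CPM and Kcnma1 at 312 and 192 CPM, where Omp at 7.30% and 14.3% of mature would bring 18.2 and 33.4 CPM of Kcnma1. Kcnh1 (61.1 and 37.5 CPM) and Kcnk5 (30.6 and 18.8 CPM) were the other members farthest above mature OSNs there. Bowman's gland cells (20 and 8 cells) had 6 of 63 higher in transgenic, against 14.7%, and held Kcnj15 at 283 and 133 CPM and Kcnj13 at 157 and 65.4 CPM, both inward rectifiers, with Kcnk1 at 119 and 112 CPM and Kcnk5 at 19.3 and 39.2 CPM.

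HBC, the resting stem cells (68 and 22 cells), had 8 of 59 members higher, against 20.2% of all features, and held Kcnh1, the ether-a-go-go channel Kv10.1, at 135 and 174 CPM and Kcnk2 at 54.6 and 108 CPM. Endothelial cells (71 and 88 cells) had 9 of 60 higher, against 24.2%, with Kcnj8, the vascular KATP pore, at 27.8 and 61.2 CPM and Kcnk3 (TASK-1) at 34.7 and 35.9 CPM. Fibroblasts (84 and 44 cells) had 12 of 60 higher, against 22%, with the T-type pore Cacna1g at 43.9 and 62.1 CPM, Scn7a at 26.9 and 35.2 CPM and Kcne4 at 17.9 and 35.2 CPM. Macrophages (77 and 31 cells) had 4 of 55 higher, against 17.7%, with Kcnk13 (THIK-1) at 36.0 and 80.0 CPM, Kcnj10 at 32.0 and 97.4 CPM and Kcnk6 at 45.3 and 41.7 CPM. In wild-type erythroid cells (25 cells) 1 of 53 was higher, against 13.4%: Kcnn4, the Gardos channel of red cells, at 130 CPM. Wild-type monocytes (71 cells) had 4 of 57 higher, against 22.9%, with Kcnn4 at 13.7, Kcne3 at 11.9 and Kcnk6 at 10.97 CPM, and in neutrophils (55 cells) 1 of 53 was called higher, against 13.7%, and this one, Kcnf1, rested on 1 UMI.

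Most members with enough UMIs were at least 2-fold lower in each of these classes than in mature OSNs. A member entered with 10 UMIs over the 2 classes together, so many entered through mature cells alone, and the counts are a description. In the epithelium they were 34 of 60 in sustentacular cells (14.8% of all features), 30 of 57 in tuft-type (13.8%), 32 of 63 in ionocyte-type (19.5%), 45 of 63 in Bowman's gland (44.1%) and 40 of 59 in HBC (21.7%). Among stromal cells they were 41 of 60 in endothelial cells (22%) and 35 of 60 in fibroblasts (20.3%). Among blood cells they were 40 of 55 in macrophages (26.8%), 48 of 57 in monocytes (39.6%), 47 of 53 in erythroid cells (51.9%) and 45 of 53 in neutrophils (60.8%).

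Olfactory ensheathing glia, which wrap the axons of OSNs, were few (14 and 8 cells, below the 20 set for a comparison). They had Kcnj10, the glial inward rectifier Kir4.1, at 557 and 666 CPM, Kcna1 at 436 and 199 CPM and Kcna2 at 248 and 336 CPM. The haemoglobin gene Hbb-bs stood at 49886 and 133138 CPM in the same cells, and its part in these levels was not tested.

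Genes with the most similar pattern were sought over 18 points (9 classes in 2 libraries), by Pearson correlation of log2(CPM + 5), given as a description since the points share libraries and depth. Scn9a was closest to Rundc3a and Mapk8ip2 (r = 0.99 for each) and Snap25, and Kcnc4 to Cnga4 (r = 0.988). Cacnb3 was closest to Ypel4 (r = 0.980). Odorant transduction genes, a list of 11, were higher from Gap43-high to mature for 10 of 11, among them Cnga4 (15.2 and 49.3 to 348.5 and 404 CPM) and Ano2, the calcium-activated chloride channel (38.6 and 54.9 to 263 and 274 CPM). Of 39 other excitability genes with no Kcn, Scn or Cacn symbol in the rule, 20 had enough UMIs and 6 were higher (Hcn2, Fgf12, Amigo1, Atp1b1, Slc8a1 and Rims1), with Clcn5 lower.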

How the data were processed

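The authors deposited unnormalized UMI counts, by gene, of every barcode, empty droplets included. The submitters' processing notes name Cell Ranger 6.1.1 and GRCm39, while the matrix headers name Cell Ranger 4. Cells had at least 5827.5 (transgenic) or 5317.7 (wild-type) UMIs, which is 10% of the 99th percentile of the 5000 largest barcodes, 500 genes and at most 10% mitochondrial UMIs. Scrublet marked 4 and 2 cells (0.229% and 0.179%), which were removed. The libraries' cells shared 1 barcode. Clustering (scanpy 1.11.5, igraph 0.11.9, 2000 variable genes, 30 components, resolution 1) left out the members, odorant receptors and the transgene, and clusters were named from 161 markers of 26 classes. Tex15 and Gap43 cells fell in 1 cluster, which was divided at resolution 0.5 after the data were seen. Clusters led by genes at odds with their markers stayed unnamed (96 and 119 cells).

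UMIs were summed per class and library, and 1 UMI was added to each sum before a ratio. For the step from Gap43-high to mature, Poisson counts of 32534 features were simulated, with a 4-fold change in some features with enough expected UMIs. Of these changed features 99.5% were called. Changes in features with few UMIs, the smaller classes and spread beyond counting error were not simulated. Reads of overlapping or antisense genes are uncertain. The members, lists and tests were chosen with earlier results of these data known. Named members are the 12 highest in mature cells, the 6 with the largest rise and fall at each step and by S100a5, those past the fold between libraries and by the transgene and Nqo1, and the 3 leading each other class. The further members Kcna5, Kcnh3, Kcnh4, Scn8a, Scn2a, Cacna1h, Kcnj13 and those of the ensheathing glia, were chosen after their values were seen. Some members that the rule names are not reported here.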

Additional observations from a re-analysis of the deposited data

How the results depend on the processing

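With cells thinned to 7000 UMIs, INP to early immature gave 3 higher and 1 lower, and early immature to Gap43-high 7 higher and 0 lower. With marker gates on all cells in place of clusters, the same steps gave 13 and 11, and 30 and 11, and the S100a5 parts 7 and 13. At 3-fold, 2 were higher and 3 lower at the first step and 4 higher at the second. With no minimum of UMIs, 14 were higher at the first step, and 67 and 70 were lower at the second and the last. A gene with 0 UMIs in both classes then takes its ratio from the class totals alone, through the UMI added to each sum. Lrrc38, which is no member, had 0 CPM at every stage and log2 ratios of -2.26 and -3.40 at the last step. The counts of 67 and 70 thus take in members without UMIs and are not read as falls. The marker gates reversed the mean log2 ratio of Kcnk10 from INP to early immature (-0.33) and of Cacna1e from early immature to Gap43-high (1.52), and resolution 0.5 reversed Kcnf1 in neutrophils (-0.24). For S100a5, a minimum of 2000 UMIs gave 14 lower, a division at the median 2 higher, 2-fold 3 lower, and cells without Nqo1 3 lower. For Nqo1, 2 were higher at 2000 UMIs, at 20% mitochondrial UMIs and after thinning. Between libraries, 2 were higher at 2000 UMIs, 2 lower after thinning, and 0 higher and 2 lower in the shared S100a5 range. For the transgene, thinning gave 2 higher and 0 lower, 2000 UMIs gave 4 lower, and resolutions 0.5 and 2 gave 1 lower each. Apart from the UMI added to each sum, and the fewer UMIs and other thresholds the settings themselves impose, the cause of these moves was not tested. Another 116 counts stayed within 1.5 times the main count, and 680 values of single members moved by less than their counting interval, 20 by more. At 2000 UMIs no GBC or late immature class and at resolution 0.5 no GBC class was named. CPM without S100a5 and odorant receptor UMIs, the S100a5 range and cells without Nqo1 were chosen after seeing the data.

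No paired analysis was possible because each genotype had 1 library. Precision is limited by the few wild-type GBC (7) and early immature (10) cells and by the 30 members with fewer than 10 UMIs, for which a difference was not detectable at this depth.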
